A study of Mus musculus with 6 samples.

Results

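Growing axons are steered by secreted and membrane-bound cues, which are read by receptors on the growth cone, the motile tip of the axon. The receptors act on the actin and microtubule cytoskeleton inside the growth cone, and adhesion molecules hold the axon to its substrate and to other axons. In the mature cortex many of the same genes stay active, where they take part in synapse maintenance, in structural plasticity and in the upkeep of the axon initial segment, the stretch of membrane where action potentials start. Levels of 33 genes of this system were measured in the prefrontal cortex of mice with a knockout of Pla2g4e and of wild-type mice. The genes were taken by name and matched by gene identifier, and all 33 were found among the 56923 genes in the count tables. They comprised 8 growth cone and microtubule proteins, 2 semaphorins with 5 neuropilin and plexin receptors, 3 Slits with 2 Robo receptors, 1 netrin with 2 netrin receptors, 2 ephrins with 3 Eph receptors, 3 adhesion molecules and 2 scaffold or adhesion proteins of the axon initial segment.

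The KO group consisted of 3 prefrontal cortex libraries whose genotype is given as Pla2g4e knockout, and the WT group of 3 libraries from wild-type animals. Pla2g4e encodes an enzyme of the cytosolic phospholipase A2 family that makes N-acyl phosphatidylethanolamines in a calcium-dependent way. The constitutive knockout carries the Pla2g4e tm2a allele on a C57BL/6N-A tm1Brd background, a gene trap with LacZ that should remove function, and the tissue came from a cut through the anterior brain. The labels give neither age, sex nor litter of these animals, nor do they say that the libraries of a group came from separate animals, so the p-values measure only the spread between these libraries. The values are counts of polyadenylated RNA fragments per gene, given here as CPM (fragments per 1000000 in the library) after scaling by the trimmed mean of M-values. Since the samples are bulk tissue, fewer cells of a type and less RNA per cell cannot be told apart.

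Library totals ranged from 11792463 to 14594230 fragments, and no pair of libraries had counts that agreed within sampling noise (lowest chi-square per degree of freedom 2.79). Pla2g4e itself was at 5.95, 8.12 and 7.97 CPM in KO 1 to 3 and at 7.84, 11.3 and 13.2 CPM in the libraries labelled WT 1 to 3. The value of the library labelled WT 1 lay within the KO range, and the limma-voom log2 fold change of KO over WT was -0.55 ± 0.21 (SE, adjusted p = 0.635). Fragments were counted over all exons of the gene together, on either side of the trapping element. Which exons the fragments in KO came from was not tested. KO 1 and the library labelled WT 1 expressed Xist and had no more than 2 fragments of any of 4 Y-linked genes, whereas the other 4 libraries expressed all of them. KO 1 also stood apart in 10 markers of the olfactory bulb and of migrating neuroblasts, whose summed level was 353 CPM there, 102 to 118 CPM in the other KO libraries and 59.8 to 118 CPM in WT. All 10 of these markers were highest in KO 1 and lowest in WT 2, where Eomes was at 0. General neuron markers, which are not particular to cortex, were abundant in every library, at a summed 10623 to 11896 CPM in KO, against 11507 to 12608 CPM in WT, lowest in KO 1 and highest in WT 2. Markers of striatal medium spiny neurons summed to 352, 459 and 349 CPM in KO 1 to 3. In the libraries labelled WT 1 to 3 they summed to 262, 265 and 435 CPM. Oligodendrocyte markers summed to 2343, 2675 and 2721 CPM in KO and to 1814, 2013 and 3009 CPM in WT. In both lists the library labelled WT 1 and WT 2 lay below every KO library, and WT 3 did not. Of 13 marker lists, interneurons alone had summed levels that did not overlap, at 255 to 281 CPM in KO, against 295 to 363 CPM in WT. Not every gene of the list separated. Sst, its most abundant gene, was at 80.4 to 95.3 CPM in KO, against 117 to 142 CPM in WT, and Pvalb and Lhx6 were also lower in every KO library. Vip, Npy and Slc32a1 overlapped, with log2 fold changes of -0.15, -0.21 and 0.05. The part of these genes in the differences of the 33 was not tested.

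All 33 genes were expressed in all 6 libraries, with 85 to 18663 fragments per gene and library, and all passed the filter on low counts. Per exonic length the levels spanned 120-fold. Tubb3, the neuronal beta-tubulin of the axon, led with a mean of 153 CPM per kilobase, followed by the growth cone protein Gap43 at 120, the tubulin-binding Stmn1 at 109, the microtubule-associated Map1b at 83.7 and Stmn2 at 53.3 CPM per kilobase. The microtubule group thus filled the first 5 places of the order. Cntn1, a GPI-anchored adhesion molecule, came next with 39.7 CPM per kilobase, then Dpysl2 at 31.4, Ncam1 at 29.9, L1cam at 27.9 and the Eph receptor Epha4 at 23.9 CPM per kilobase. At the low end stood Ntn1 with 1.76, Slit2 with 1.63, Sema3f with 1.42 and the Eph receptor Ephb2 with 1.27 CPM per kilobase. Most neighbours in this order could not be separated, since the library ranges of 27 of the 32 neighbouring pairs overlapped. The 5 pairs that stood apart were Tubb3 above Gap43, Map1b above Stmn2, Stmn2 above Cntn1, Plxna2 above Plxna4 and Robo1 above Nrp1.

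**Figure D1:**
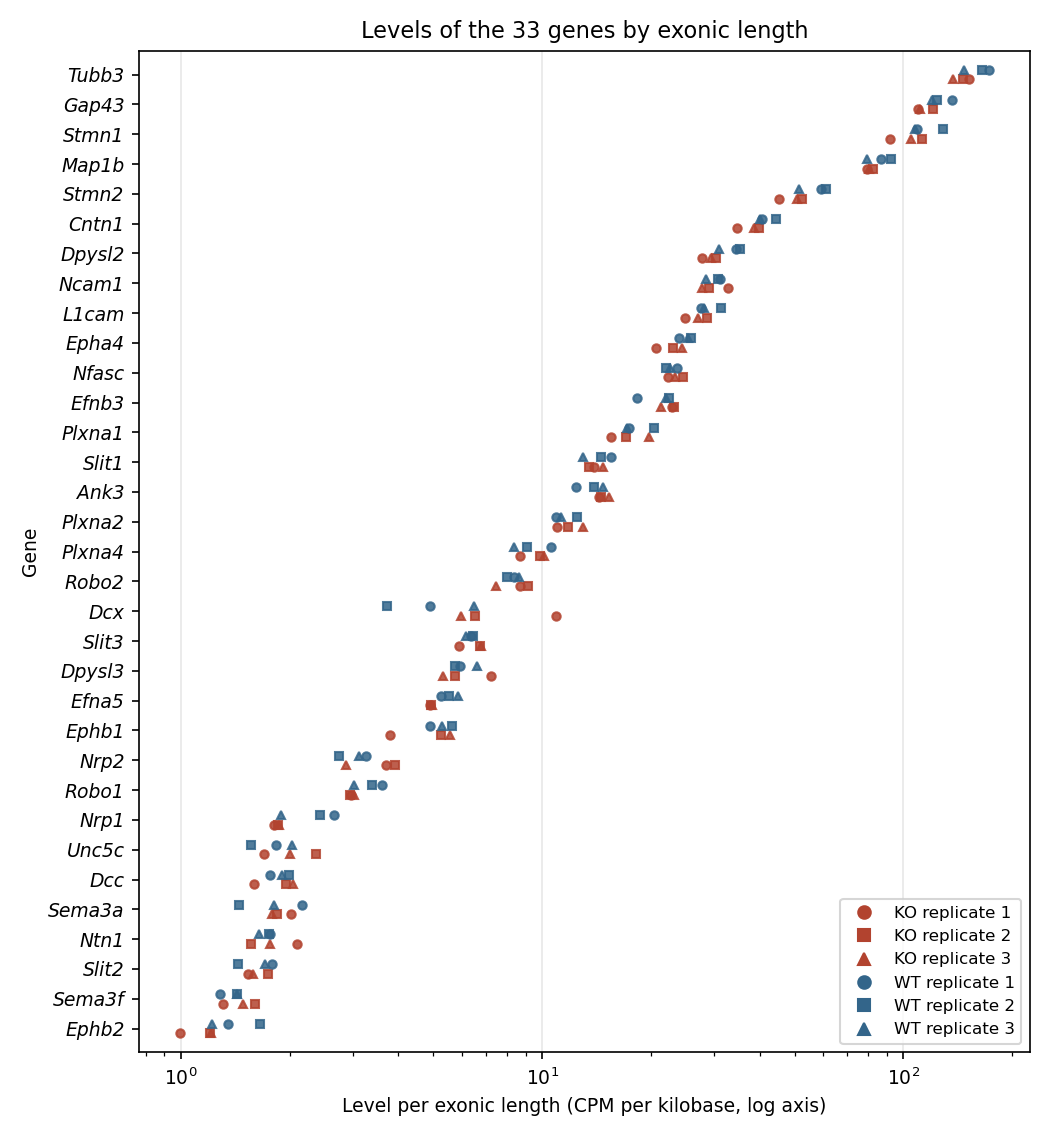
Level of each of the 33 genes per exonic length, in CPM per kilobase on a log axis, with 1 point per library (KO and WT in separate colours, replicates by symbol). Tubb3 had the highest mean at 153 CPM per kilobase and Ephb2 the lowest at 1.27, and KO and WT points of a gene lay close together compared with the 120-fold range between genes.

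Ligands and receptors among the 33 genes were set side by side per exonic length. The 2 class 3 semaphorins, secreted cues that mostly repel axons, summed to 3.35 ± 0.083 CPM per kilobase in KO and 3.19 ± 0.287 in WT (SD, n = 3). Their binding receptors, the 2 neuropilins, reached 5.34 ± 0.537 in KO and 5.37 ± 0.487 CPM per kilobase in WT, and the 3 class A plexins, the signalling partners of the neuropilins, 38.9 ± 3.84 in KO and 39.2 ± 2.6 in WT. The 3 plexins together were above either of these sums. The 3 Slits, secreted repellents, summed to 22.1 ± 0.841 CPM per kilobase in KO and 22.3 ± 1.4 in WT, above the 11.4 ± 0.824 in KO and 11.7 ± 0.319 in WT of their receptors Robo1 and Robo2. These sums do not compare whole families, since Robo3, outside the 33, was at 7.64 to 13.3 CPM per kilobase. Netrin-1, which attracts through Dcc and repels through Unc5 receptors, was at 1.81 ± 0.272 in KO and 1.72 ± 0.0601 CPM per kilobase in WT, with Dcc and Unc5c together at 3.88 ± 0.533 and 3.69 ± 0.214, while the netrin receptors Unc5a and Neo1, also outside the 33, averaged 28 and 12 CPM per kilobase. For the Eph system the 2 ephrins summed to 27.4 ± 0.942 in KO and 26.4 ± 2.54 in WT, and the 3 Eph receptors to 28.7 ± 2.93 in KO and 31.7 ± 1.42 CPM per kilobase in WT. The ephrins were above the receptors in KO 1 and below them in the other 5 libraries. In each of these 9 sums the difference between the group means was smaller than the larger of the group SDs, except for the Eph receptors, where it was about equal to the KO SD.

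The 33 genes also shared features that their selection did not use. Their exonic length had a median of 9054 bases, against 3806 bases over all 19084 genes tested, and 29 of the 33 were longer than that median. The median genomic span was 177108 bases, against 18998 bases over all genes tested. They lie on 17 chromosomes, and Dcx and L1cam are on chromosome X. Between libraries the levels were steady, with a median ratio of the highest to the lowest library of 1.27. The steadiest was Nfasc at 1.11, the adhesion molecule of the axon initial segment and the node of Ranvier, and the most variable by far was Dcx at 2.92, a microtubule-binding protein of migrating and newly formed neurons. Ephb2 came next at 1.68.

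To test whether the Pla2g4e knockout shifts this system, KO was compared with WT by limma-voom over all 19084 genes. None of the 33 genes passed an adjusted p of 0.05, and none of the 19084 did (0.0%). The lowest adjusted p was 0.635, shared by 6 of the 33, and the quasi-likelihood test of edgeR and DESeq2 also gave 0 of the 33. Over all genes the count depended on the fit, since DESeq2 called 1 gene (Sst), limma-voom with a covariate for Y-linked expression 23, and limma-voom within the 4 libraries with Y-linked expression 3, none of them among the 33. With the Y-linked covariate 10 of the 33 had an unadjusted p under 0.05, 9 of them lower in KO, against 10.6% of all genes tested in that fit. Within the 4 libraries with Y-linked expression 3 of the 33 did, namely Dcx, Plxna4 and Unc5c, against 3.77% of all genes tested. All 3 were higher in KO there and 0 were lower. At an unadjusted p under 0.05 there were 6 of the 33 (18.2%), against 7.82% of all genes tested. Among them 5 were lower in KO (15.2%, against 3.44% of all genes tested in that direction), namely the growth cone and microtubule proteins Gap43, Dpysl2 and Stmn2, the semaphorin receptor Nrp1 and the Eph receptor Ephb2. Dcx alone was higher in KO, where the share of all genes tested was 4.38%. These counts depended on the libraries in the fit. Without KO 1 the number at an unadjusted p under 0.05 was 3 of the 33, against 4.44% of all genes tested in that fit. Of these, 1 was lower in KO (Tubb3) and 2 were higher (Dcx and Unc5c). Without KO 2 it was 8 of the 33 (against 7.43% of all genes tested) and without KO 3 it was 7 of the 33 (against 8.05%). Without the library labelled WT 1 it was 2 of the 33 (against 5.38%), without WT 2 it was 0 of the 33 (against 4.13%) and without WT 3 it was 11 of the 33 (against 11.8%). The log2 fold changes of Gap43, Dpysl2, Stmn2 and Dcx were -0.16, -0.20, -0.21 and 0.62 with every library. They were -0.13, -0.17, -0.15 and 0.34 without KO 1, and -0.17, -0.16, -0.16 and 0.42 without WT 2.

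Most differences were small. Of the 33 genes, 20 had a negative and 13 a positive log2 fold change, with a median of -0.03 against 0.01 over all genes tested. For 30 of the 33 genes the 95% interval of the log2 fold change lay within 0.5 of 0, and the median SE was 0.09. The CPM values of KO and WT did not overlap for 5 of the 33 (15.2%), and in all 5 the KO values were the lower ones, against 6.29% of all genes tested in that direction. These were Dpysl2, Nrp1, Efna5, Ephb2 and Cntn1. No gene of the 33 had KO values wholly above WT, whereas 6.72% of all genes tested did.

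**Figure D2:**
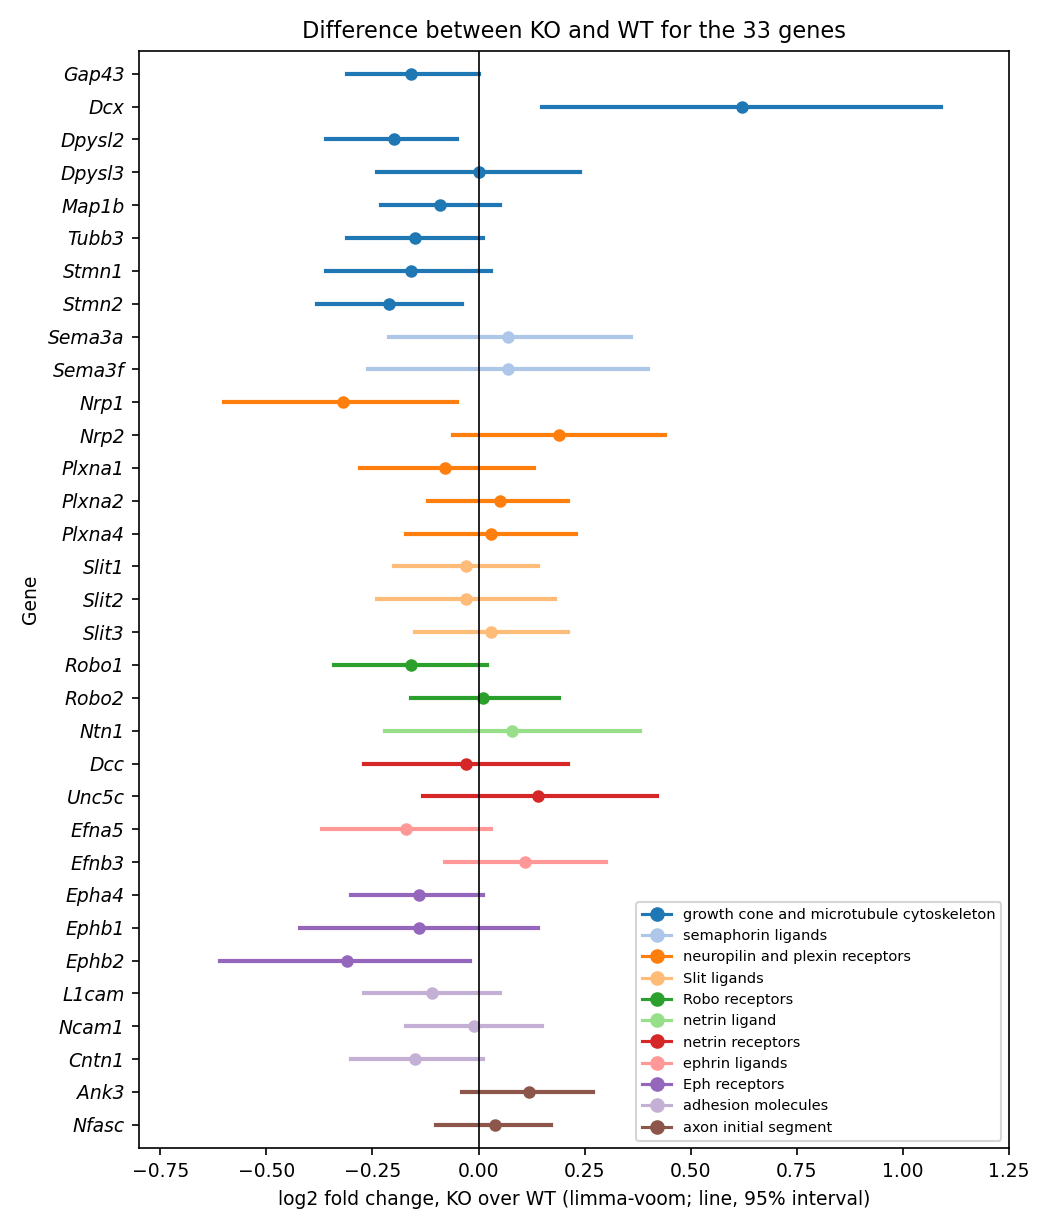
log2 fold change of KO over WT for the 33 genes from limma-voom, with points for the estimate, lines for the 95% interval and colours for the role group. Estimates ran from -0.32 for Nrp1 to 0.62 for Dcx, and the intervals of Dcx, Nrp1 and Ephb2 were the only ones to reach beyond 0.5 from 0.

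Promoter sequence is shown for Nrp1, Efna5, Ephb2 and Cntn1, the genes with KO values wholly below WT for which a window was held, and for Dcx, which stood on the other side. Promoters of 19 of the 33 genes were taken from RefSeq sequences of the earlier GRCm38.p6 assembly. The 250 bases before the start of transcription were read for each in the sense of the gene. Capitals mark the GC box GGGCGG and the TATA box TATAAA, read on both strands (CCGCCC and TTTATA on the other).
Nrp1, chr8:128358823-128359072, plus strand: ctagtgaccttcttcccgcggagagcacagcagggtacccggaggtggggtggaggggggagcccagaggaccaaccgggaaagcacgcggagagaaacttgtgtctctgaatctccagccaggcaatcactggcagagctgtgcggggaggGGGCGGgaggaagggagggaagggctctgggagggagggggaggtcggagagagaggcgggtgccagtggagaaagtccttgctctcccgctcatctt
Efna5, chr17:62881318-62881567, minus strand: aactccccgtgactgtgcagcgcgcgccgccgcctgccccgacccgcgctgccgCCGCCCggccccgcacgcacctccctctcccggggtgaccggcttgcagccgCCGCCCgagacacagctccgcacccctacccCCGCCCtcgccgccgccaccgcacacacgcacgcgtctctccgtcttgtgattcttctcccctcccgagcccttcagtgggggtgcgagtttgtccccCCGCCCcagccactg
Ephb2, chr4:136836013-136836262, minus strand: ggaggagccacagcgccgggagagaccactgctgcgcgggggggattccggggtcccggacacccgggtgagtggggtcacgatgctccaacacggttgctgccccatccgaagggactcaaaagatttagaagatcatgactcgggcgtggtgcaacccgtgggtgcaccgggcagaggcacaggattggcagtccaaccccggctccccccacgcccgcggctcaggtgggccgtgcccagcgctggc
Cntn1, chr15:92050915-92051164, plus strand: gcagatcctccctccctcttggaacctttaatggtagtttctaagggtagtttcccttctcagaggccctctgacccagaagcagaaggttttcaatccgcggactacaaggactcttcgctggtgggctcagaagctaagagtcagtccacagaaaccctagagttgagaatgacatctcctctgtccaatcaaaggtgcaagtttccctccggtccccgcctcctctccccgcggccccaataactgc
Dcx, chrX:143933220-143933469, minus strand: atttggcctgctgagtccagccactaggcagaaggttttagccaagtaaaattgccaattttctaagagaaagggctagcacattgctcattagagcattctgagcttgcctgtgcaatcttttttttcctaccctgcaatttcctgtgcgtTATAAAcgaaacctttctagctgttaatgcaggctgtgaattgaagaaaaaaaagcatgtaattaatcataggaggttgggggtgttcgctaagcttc
The windows of the genes with lower KO values ranged widely. GC content was 64.4% for Nrp1 with 11 CG dinucleotides and 1 GC box, 74.8% for Efna5 with 32 CG dinucleotides and 4 GC boxes, and 68.4% for Ephb2 with 20 CG dinucleotides and 0 GC boxes. Cntn1 had 3 windows, at 53.6%, 32.8% and 43.6% GC with 7, 3 and 3 CG dinucleotides and 0 GC boxes, of which the most upstream is printed and the next one, not printed, held 1 TATA box. Dcx had 2 overlapping windows, at 41.6% and 44.8% GC, each with 3 CG dinucleotides, 0 GC boxes and 1 TATA box, of which the more upstream is printed. Counting the first listed window of each gene alone, over the 19 genes with a window the median GC content was 66.0% and the median number of CG dinucleotides 18, against 52.0% and 6 over all 27025 genes with a window. A GC box was present in 11 of the 19 (57.9%, against 32.9% of all genes with a window), a TATA box in 3 (15.8%, against 3504 of the 27025 genes) and the cyclic AMP response element TGACGTCA in 0 (0.0%, against 1.62%). Dpysl3 and Dcc were left out before the 19 genes were counted. The 27025 genes were not narrowed in that way, so these values compare lists that were not chosen alike. A match of letters describes the window and does not show a bound site. No motif was tested against the differences between KO and WT.

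Among the 8 growth cone and microtubule proteins none passed the test. Of the 8 genes, 7 had a negative log2 fold change and 1, Dcx, a positive one, with a group median of -0.15. Among the 7, Dpysl3 had a log2 fold change of -0.00 that turned positive, at 0.025, with library totals as the only scaling. At an unadjusted p under 0.05 there were 4 of 8, 3 of them lower (against 3.44% of all genes tested) and 1 higher (against 4.38%), and 0 passed after adjustment. None of the 33 genes had an unadjusted p under 0.05 without WT 2 or with striatal markers as a covariate. The shares of all genes tested were 4.13% and 5.13% in those fits. With the striatal covariate the log2 fold changes were -0.15 for Gap43, -0.17 for Dpysl2, -0.18 for Stmn2 and 0.53 for Dcx, close to those without it. Those without WT 2 are given above. After trends with exonic length and level were removed from each library, the log2 fold changes were -0.069 for Gap43, -0.052 for Tubb3, -0.071 for Stmn1 and -0.046 for Map1b. In the same fit Dpysl2 was at -0.16, Stmn2 at -0.15 and Dcx at 0.61. These 3 were among 6 of the 33 genes with an unadjusted p under 0.05 there, against 6.44% of all genes tested. With the olfactory bulb markers as a covariate Stmn1 was at -0.025. Dpysl2, the collapsin response mediator that binds tubulin dimers and acts downstream of semaphorins, lies at chr14:67040313-67106137 (GRCm39, as all gene positions given from here on). It was at 125, 137 and 133 CPM in KO 1 to 3 and at 156, 160 and 140 CPM in the libraries labelled WT 1 to 3. Every KO library lay below every WT library, although KO 2 and WT 3 were close to each other. The log2 fold change was -0.20 ± 0.07 (SE, limma-voom unadjusted p = 0.0152, adjusted p = 0.635).

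Stmn2, a neuronal stathmin that regulates microtubule turnover in growing and regenerating axons, lies at chr3:8574420-8626666. It was at 253, 293 and 284 CPM in KO, against 331, 342 and 289 CPM in WT. KO 1 was the lowest library and KO 2 overlapped WT 3. The log2 fold change was -0.21 ± 0.08 (SE, limma-voom unadjusted p = 0.0208, adjusted p = 0.635). Gap43, a membrane-bound growth cone protein that marks axon growth and sprouting, lies at chr16:42068805-42161014. Its levels were 167, 184 and 169 CPM in KO, against 207, 189 and 183 CPM in WT. KO 2 reached just above WT 3, so the groups overlapped, and the log2 fold change was -0.16 ± 0.07 (SE, limma-voom unadjusted p = 0.0465, adjusted p = 0.635).

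Map1b, Tubb3 and Stmn1 also had negative log2 fold changes, with overlap of the groups. Map1b, the first microtubule-associated protein to appear in growing axons and the most abundant of the 33 in CPM, was at 1261, 1310 and 1278 CPM in KO, against 1376, 1467 and 1262 CPM in WT. WT 3 lay among the KO libraries, and the log2 fold change was -0.09 ± 0.06 (SE, limma-voom adjusted p = 0.708). Tubb3 averaged 271 ± 14.7 CPM in KO, against 302 ± 24.7 CPM in WT (SD, n = 3), with a log2 fold change of -0.15. Stmn1, the stathmin of proliferating and immature cells, averaged 199 ± 20.2 and 222 ± 23 CPM, with a log2 fold change of -0.16. Dpysl3, a relative of Dpysl2, was at 40.3 CPM in both groups, with SDs of 6.65 in KO and 3.06 in WT, and its highest value, 47.9 CPM, was that of KO 1. Across the libraries KO 1 was the lowest for Gap43, Dpysl2, Map1b, Stmn1 and Stmn2.

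Dcx showed the largest difference of the 33 and the largest spread. The gene lies on the minus strand at chrX:142638838-142716307. It was at 137, 82.2 and 75.7 CPM in KO 1 to 3 and at 61.7, 47.1 and 81.9 CPM in the libraries labelled WT 1 to 3. KO 1 was far above the rest and WT 2 below, while KO 2, KO 3 and WT 3 were nearly level. The mean was 98.4 ± 34 CPM in KO, against 63.6 ± 17.5 CPM in WT (SD, n = 3), and the log2 fold change was 0.62 ± 0.22 (SE, 95% interval 0.15 to 1.09, limma-voom unadjusted p = 0.0136, adjusted p = 0.635).

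The order of the libraries for Dcx followed the markers of the olfactory bulb and of migrating neuroblasts at its ends, since their sum was highest in KO 1 at 353 CPM and lowest in WT 2 at 59.8 CPM. Without KO 1 the log2 fold change of Dcx was 0.34 (limma-voom adjusted p = 0.925), and without WT 2 it was 0.42 (adjusted p = 0.901). With the mean log2 CPM of these markers as a covariate, an alternative chosen after seeing the data, it was 0.23 (limma-voom adjusted p = 0.85). Among the 4 libraries with Y-linked expression, which leave out KO 1 and the library labelled WT 1, it was 0.34 (adjusted p = 0.999). The unadjusted p of Dcx stayed under 0.05 without KO 1 and within those 4 libraries. It did not without WT 2, with the marker covariate, with the striatal covariate or in DESeq2. The log2 fold change of Dcx was 0.53 with the striatal covariate and 0.63 in DESeq2, close to that of the main fit. Dpysl3 was also highest in KO 1, but Dpysl2 was lowest there. The part of these markers in the differences of the other genes was not tested beyond that covariate, under which 3 of the 33 genes had an unadjusted p under 0.05, namely Tubb3, Plxna2 and Ank3, against 5.61% of all genes tested in that fit.

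**Figure D3:**
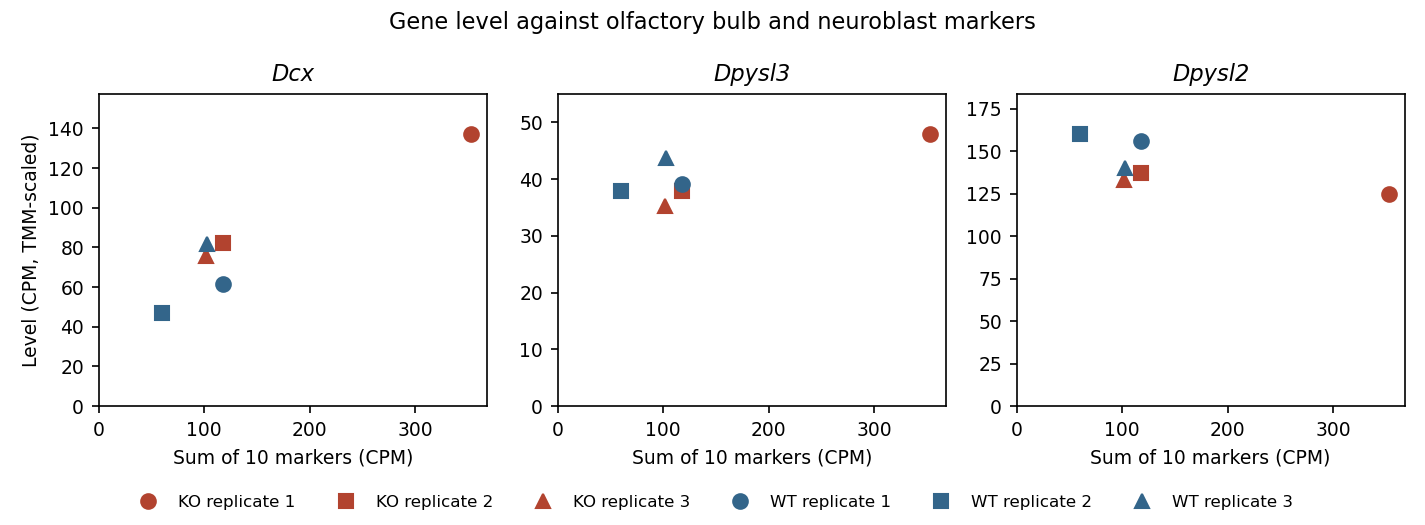
Level of Dcx, Dpysl3 and Dpysl2 in CPM (vertical axes, starting at 0) against the summed level of 10 olfactory bulb and neuroblast markers in CPM, with 1 point per library. KO 1, at a marker sum of 353 CPM, held the highest Dcx value, 137 CPM, and the lowest Dpysl2 value, 125 CPM.

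Among the semaphorins and their receptors within the 33, Nrp1 had the log2 fold change farthest from 0. Nrp1, which binds class 3 semaphorins such as Sema3a as well as vascular endothelial growth factor, lies at chr8:129085085-129229844. It was at 17.7, 18.2 and 18.3 CPM in KO and at 26, 23.7 and 18.5 CPM in the libraries labelled WT 1 to 3. The KO libraries were nearly identical and all below WT, but WT 3 lay just above them, and only WT 2 and the library labelled WT 1 stood clear of KO. The log2 fold change was -0.32 ± 0.13 (SE, 95% interval -0.60 to -0.05, limma-voom unadjusted p = 0.0261, adjusted p = 0.635). Without the library labelled WT 1 it was -0.21 and without WT 3 it was -0.47 (limma-voom adjusted p = 0.819 and 0.255).

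Its relative Nrp2, which prefers Sema3f, had the opposite sign, at 41.4 ± 6.52 CPM in KO, against 36 ± 3.22 CPM in WT (SD, n = 3) and a log2 fold change of 0.19 ± 0.12 (SE, limma-voom adjusted p = 0.68). The plexins, which carry the signal into the cell, showed little. Plxna2, the most abundant of the 3 in CPM, was at 189, 203 and 223 CPM in KO, against 187, 214 and 194 CPM in WT. The groups were interleaved, and the log2 fold change was 0.05 ± 0.08 (SE, limma-voom adjusted p = 0.884). Plxna1 and Plxna4 had log2 fold changes of -0.08 and 0.03. The ligand Sema3a was at 28.1, 25.5 and 24.8 CPM in KO, against 30.1, 20.1 and 25.1 CPM in WT, where the library labelled WT 1 and WT 2 held the highest and the lowest value. Both Sema3a and Sema3f had a log2 fold change of 0.07, with SEs of 0.13 and 0.15.

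The Slit and Robo genes were close to level. Slit1, the most abundant of the Slits in cortex here, was at 82.5, 80.2 and 86.9 CPM in KO, against 91.6, 86.4 and 76.8 CPM in WT. WT 3 was the lowest and the library labelled WT 1 the highest, and the log2 fold change was -0.03 ± 0.08 (SE, limma-voom adjusted p = 0.942). Slit2 and Slit3 had log2 fold changes of -0.03 and 0.03. Robo2 was at 148, 155 and 127 CPM in KO, against 142, 135 and 147 CPM in WT, so that KO 2 and KO 3 held the 2 ends of the range around all WT libraries. Robo1, the other Slit receptor, averaged 49 ± 0.756 CPM in KO, against 55 ± 5.02 CPM in WT (SD, n = 3), with a log2 fold change of -0.16 ± 0.08 (SE, limma-voom adjusted p = 0.638). WT 3 again lay with the KO libraries.

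For the netrin system Ntn1 was at 13.2, 9.8 and 11.1 CPM in KO, against 11.1, 11 and 10.4 CPM in WT. KO 1 and KO 2 were the highest and the lowest library, and the log2 fold change was 0.08 ± 0.14 (SE, limma-voom adjusted p = 0.894). Unc5c, the repulsive netrin receptor, was at 32.4, 45.2 and 38.3 CPM in KO, against 35, 29.9 and 38.9 CPM in WT, with a log2 fold change of 0.14 ± 0.13 (SE, limma-voom adjusted p = 0.762). The groups overlapped, with KO 1 between WT 2 and the library labelled WT 1 and WT 3 between KO 3 and KO 2. Dcc, the attractive receptor, averaged 24.5 ± 3.13 CPM in KO, against 24.8 ± 1.56 CPM in WT (SD, n = 3).

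Ephrins are membrane-bound cues that signal on contact, and Eph receptors, the largest family of receptor tyrosine kinases, also shape synapses in the mature cortex. All 3 Eph receptors had lower means in KO, with a group median of -0.14 on the log2 scale, although Ephb1 was at 0.085 with the olfactory bulb markers as a covariate. Ephb2, which associates with NMDA receptors at excitatory synapses, lies at chr4:136374850-136563299. It was at 12.5, 15.1 and 15.3 CPM in KO, against 17, 21 and 15.4 CPM in WT. KO 1 was the lowest and WT 2 the highest library, and KO 3 and WT 3 were nearly equal. The log2 fold change was -0.31 ± 0.14 (SE, 95% interval -0.61 to -0.02, limma-voom unadjusted p = 0.0408, adjusted p = 0.635), and with the olfactory bulb markers as a covariate it was -0.13.

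Epha4, the receptor that binds ephrins of both classes, was at 167, 185 and 197 CPM in KO, against 194, 208 and 204 CPM in WT. KO 3 overlapped the library labelled WT 1, and the log2 fold change was -0.14 ± 0.07 (SE, limma-voom adjusted p = 0.637). Ephb1 averaged 34.1 ± 6.61 CPM in KO, against 36.9 ± 2.56 CPM in WT (SD, n = 3). KO 1 was the lowest library for all 3 receptors. Among the ligands Efna5, which forms graded maps of projections, lies at chr17:62911179-63188312 and was at 19.7, 19.8 and 20 CPM in KO, against 21.2, 22.3 and 23.5 CPM in WT. The groups did not overlap and the KO values were very close together, but the log2 fold change was only -0.17 ± 0.09 (SE, limma-voom unadjusted p = 0.0946, adjusted p = 0.653). Efnb3, the midline repellent of corticospinal axons, was at 72.9, 73.9 and 68.1 CPM in KO, against 58.2, 71.5 and 69.9 CPM in WT. Only the library labelled WT 1 lay clearly below the KO range, and the log2 fold change was 0.11 ± 0.09 (SE, limma-voom adjusted p = 0.733).

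**Figure D4:**
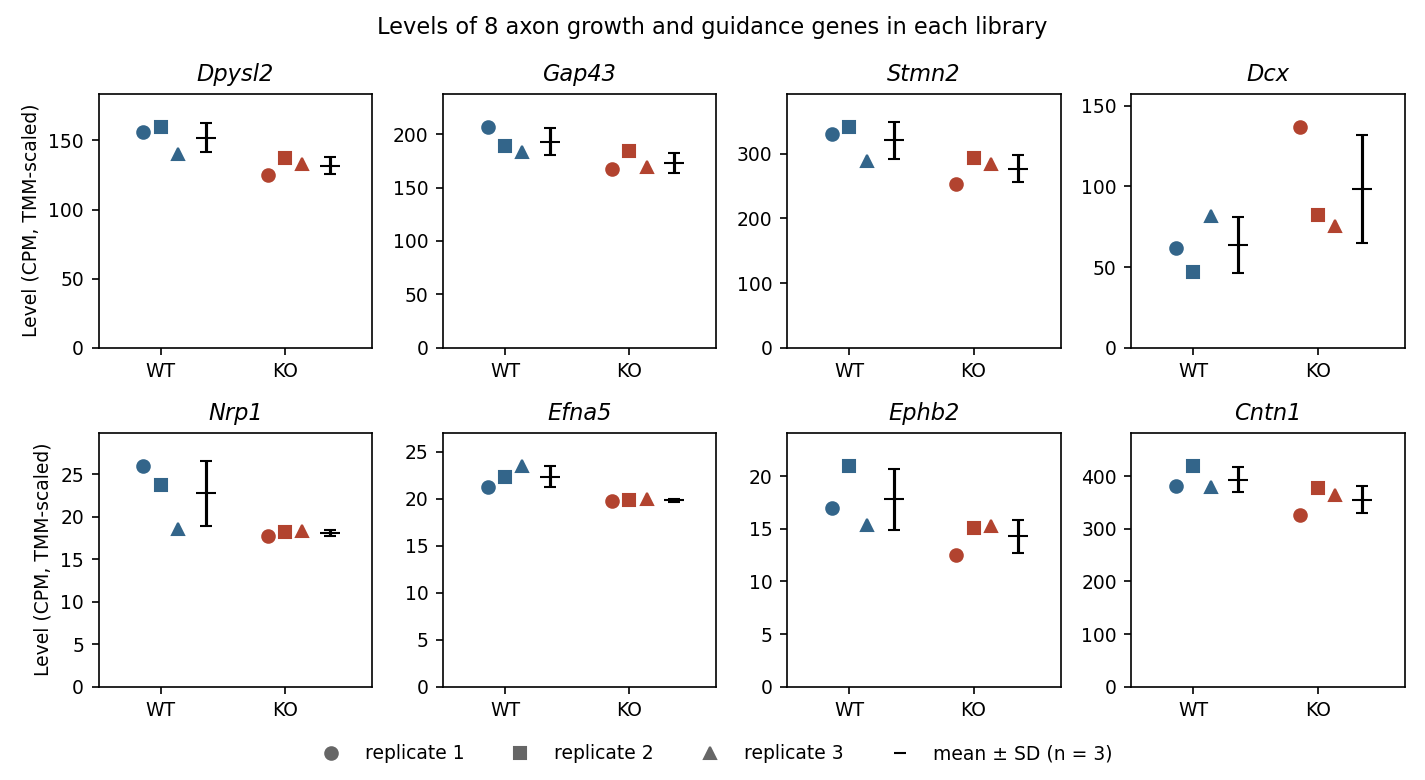
Level in CPM (vertical axes, starting at 0) of 8 of the genes in each library by group, with points for libraries, symbols for replicate numbers and bars for the mean and SD of 3 libraries. KO points of Dpysl2, Nrp1, Efna5, Ephb2 and Cntn1 lay below all WT points, by a narrow margin for Nrp1, Ephb2, Cntn1 and Dpysl2, and the KO 1 value of Dcx, 137 CPM, stood above the rest.

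The adhesion molecules had lower means in KO in 3 of 3 cases, with a median of -0.11 on the log2 scale, although Ncam1, at -0.01, was at 0.017 with library totals as the only scaling, and none had an unadjusted p under 0.05. Cntn1, which pairs with contactin-associated proteins along axons, lies at chr15:91949046-92239848. It was at 326, 377 and 364 CPM in KO, against 382, 420 and 379 CPM in WT. The groups did not overlap, but KO 2 and WT 3 were close to each other. The log2 fold change was -0.15 ± 0.07 (SE, limma-voom unadjusted p = 0.0612, adjusted p = 0.637). L1cam, which promotes neurite outgrowth, averaged 197 ± 14.2 CPM in KO, against 212 ± 14.7 CPM in WT, and Ncam1 averaged 259 ± 22.6 and 260 ± 12.2 CPM (SD, n = 3). KO 1 was the lowest library for Cntn1 and L1cam and the highest for Ncam1.

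The genes of the axon initial segment were higher in KO in mean but did not separate. Ank3 encodes ankyrin G, the scaffold that clusters sodium channels and neurofascin there, and was at 501, 509 and 532 CPM in KO, against 432, 484 and 511 CPM in WT. WT 3 lay between KO 2 and KO 3, and the library labelled WT 1 was the lowest. The log2 fold change was 0.12 ± 0.07 (SE, limma-voom adjusted p = 0.677). Nfasc averaged 331 ± 15.4 CPM in KO, against 322 ± 11.7 CPM in WT (SD, n = 3), with a log2 fold change of 0.04 ± 0.06 (SE, limma-voom adjusted p = 0.884). Its 95% interval, -0.10 to 0.17, was among the narrowest of the 33.

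Looking across libraries instead of groups, KO 1 stood out on the low side. It was the lowest library for 15 of the 33 and the highest for 4. WT 2 was the highest for 10 and the lowest for 6, and the library labelled WT 1 was the highest for 8 and the lowest for 4. How often each library was the highest or the lowest over all genes tested was not counted. The median deviation of the 33 from their mean over 6 libraries was -0.09 in KO 1 and 0.05 in WT 2 on the log2 scale, and between -0.04 and 0.01 in the other 4, while the median over all genes tested was between -0.01 and 0.01 in every library. The same 2 libraries were the extremes of the summed neuron markers, with a minimum of 10623 CPM in KO 1 and a maximum of 12608 CPM in WT 2, and of the olfactory bulb markers. The 8 neuron markers did not share this order. Snap25 and Syt1 were lowest in KO 1 and highest in WT 2, Slc17a7 and Nrgn were lowest in KO 1 and highest in the library labelled WT 1, Camk2a and Rbfox3 were lowest in the library labelled WT 1 and highest in KO 3, and the GABA-synthesising enzymes Gad1 and Gad2 were highest in KO 1 and lowest in WT 2. Of the 8, Snap25 and Nrgn had an unadjusted p under 0.05, with log2 fold changes of -0.19 and -0.22 (limma-voom adjusted p = 0.635 for both). Whether neuron content plays a part in the differences of these genes was not tested.

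**Figure D5:**
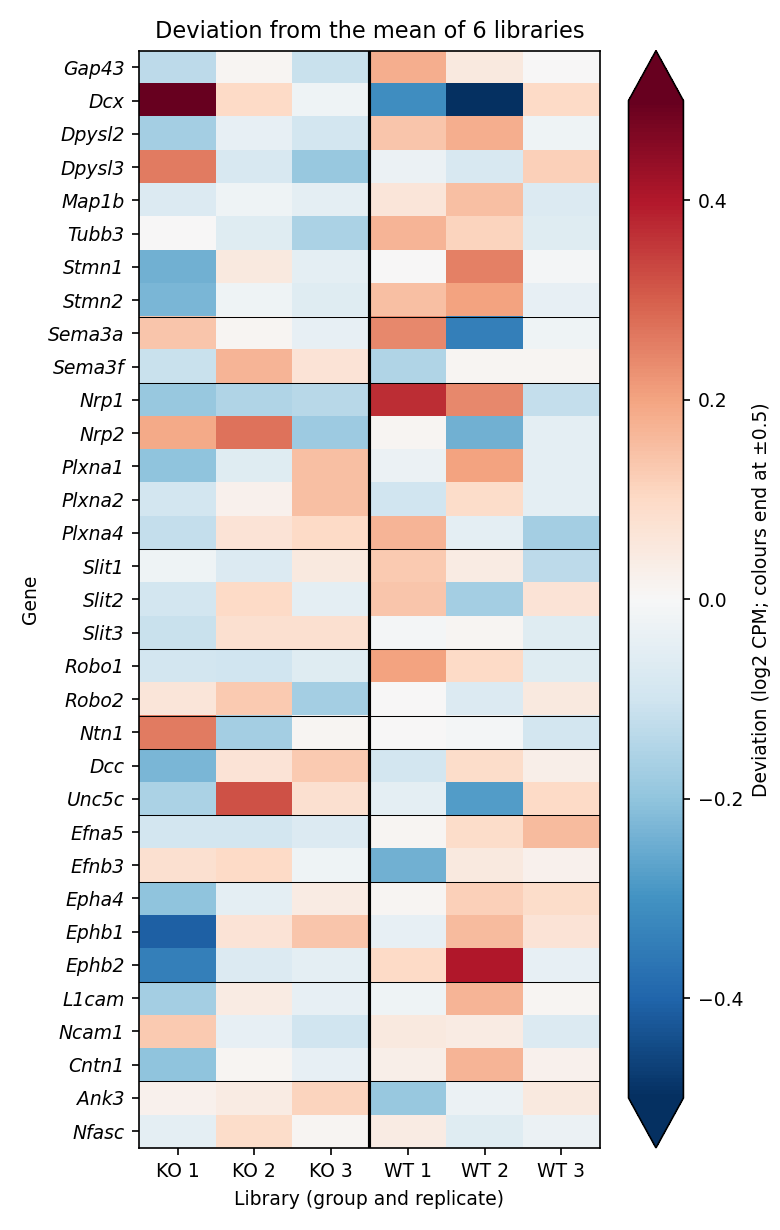
Deviation of each of the 33 genes in each library from its mean over 6 libraries, on the log2 CPM scale, with colours ending at 0.5 either way and the role groups divided by lines. KO 1 carried the most low values, being the lowest library for 15 genes, and Dcx deviated most, with 0.84 in KO 1 and -0.70 in WT 2.

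A wider list of axon guidance genes gave similarly small differences. It held 88 other genes of the same families, of which 86 were tested and Efna4 and Epha1 were not. None passed an adjusted p of 0.05 in limma-voom, and 11 of 86 (12.8%, against 7.82% of all genes tested) had an unadjusted p under 0.05, 7 of them lower and 4 higher in KO. The count was 5 of 86 without KO 1 (against 4.44% of all genes tested in that fit), 17 of 86 without KO 3 (against 8.05%) and 6 of 86 without WT 2 (against 4.13%). It was 21 of 86 without WT 3 (against 11.8%), 18 of 86 with the Y-linked covariate (against 10.6%) and 5 of 86 with the olfactory bulb covariate (against 5.61%). KO and WT values were apart for 10 of the 86, 6 with KO lower (against 6.29% of all genes tested) and 4 with KO higher (against 6.72%). By family, with all 6 libraries and no covariate, an unadjusted p under 0.05 was reached by 5 of 17 growth cone and microtubule genes (3 lower), 2 of 15 ephrin and Eph genes (both lower), 2 of 13 adhesion and initial segment genes (both lower), 1 of 24 semaphorins and plexins (higher), 1 of 12 netrin, Unc5 and repulsive guidance genes (higher) and 0 of 5 Slit and Robo signalling genes.

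The lowest p-values of the wider list belonged to genes of several roles. Sema6c, a transmembrane semaphorin, was at 30.3, 27.8 and 24.4 CPM in KO, against 20.9, 20.2 and 22.3 CPM in WT, so that all KO libraries were above all WT libraries, with a log2 fold change of 0.38 ± 0.10 (SE, limma-voom unadjusted p = 0.00358, adjusted p = 0.635). Ntn4, a secreted netrin relative, was at 13.7, 9.55 and 10.5 CPM in KO, against 7.6, 6.55 and 9.42 CPM in WT, with a log2 fold change of 0.53 ± 0.18. Dclk2, a kinase relative of Dcx, was at 144, 106 and 102 CPM in KO, against 98.1, 91.3 and 92 CPM in WT, with a log2 fold change of 0.31 ± 0.11. For Sema6c, Ntn4 and Dclk2, as for Dcx, KO 1 was the highest library and WT 2 the lowest. On the lower side, Chl1, a close relative of L1cam, was at 181, 216 and 211 CPM in KO, against 239, 246 and 218 CPM in WT, with a log2 fold change of -0.21 ± 0.08. Stmn3, a relative of Stmn2, was at 280, 282 and 269 CPM in KO, against 362, 324 and 284 CPM in WT, with a log2 fold change of -0.22 ± 0.08. Both had every KO library below every WT library. Efna3 was at 36, 40.9 and 45.8 CPM in KO, against 51.8, 45.3 and 48.3 CPM in WT, with overlap between KO 3 and WT 2 and a log2 fold change of -0.26 ± 0.10. The limma-voom adjusted p was 0.635 for each of these 6 genes.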

How the data were processed

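RNA was extracted from prefrontal cortex, and strand-specific libraries of polyadenylated RNA were sequenced as read pairs (3 KO and 3 WT libraries, grouped by title). The deposited values are raw counts of fragments per gene and library. Per the file headers, the authors counted fragments over exons with featureCounts 1.6.0, paired-end and reverse-stranded, on GENCODE M31 (GRCm39), after alignment with STAR 2.7.9a per the submitters' processing notes. The study's methods name mm10 and an earlier GENCODE release. The allele, background and dissection are as given there. Gene coordinates are those of the files. The header sets no option for multi-mapping fragments, so genes with near-identical copies, such as the tubulins, may be undercounted.

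Symbols for 52073 of 56923 genes came from an annotation of the previous assembly, matched by gene identifier. As in the study's methods, the 19084 genes with at least 6 fragments in at least 1 library were tested by limma-voom (limma 3.58.1, edgeR 4.0.16 scaling factors, R 4.3.3), two-sided and without covariates, and p-values were adjusted by Benjamini-Hochberg across the 19084 genes (threshold 0.05). The lists of guidance genes and cell type markers and the 33 genes themselves were chosen with earlier results of these data known. Values per library were named for genes with an unadjusted p under 0.05 or no overlap of groups, for the gene of highest mean CPM in each role group, and for the 6 lowest p-values of the wider list. Alternatives were edgeR's quasi-likelihood test, DESeq2 1.42.0, other scaling, filters and weights, covariates for Y-linked, striatal and olfactory bulb genes, removal of trends with length and level, the replicate number as a block, and leaving out libraries. The fit was tested on simulated data, where it recovered most of the changed genes and made more calls on unchanged genes than the adjusted threshold allows for. Fragments carry no molecular identifiers. Protein sequences were not used here.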

Additional observations from a re-analysis of the deposited data

How the results depend on the processing

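None of the 33 genes and none of the 86 other guidance genes passed an adjusted p of 0.05 in any of the 19 alternatives, and 19 of the 33 kept their direction in all of them. The number of the 33 at an unadjusted p under 0.05, 6 as reported, was 3 with DESeq2, 10 with the Y-linked covariate, 0 with the striatal covariate, 3 in libraries with Y-linked expression and 3 with the olfactory bulb covariate, which was chosen after seeing the data, and ranged from 0 to 11 when each library was left out in turn. It was lowest without WT 2 and highest without WT 3. The direction also depended on the fit. Of the 6 as reported, 5 were lower in KO, whereas all 3 in libraries with Y-linked expression were higher in KO. With the olfactory bulb covariate 1 was lower and 2 were higher. With the striatal covariate the log2 fold changes of Gap43, Dpysl2, Stmn2 and Dcx were -0.15, -0.17, -0.18 and 0.53. As reported they were -0.16, -0.20, -0.21 and 0.62. The median over the 33 was -0.042 with that covariate and -0.032 as reported. For the other guidance genes the 11 as reported became 18 with the Y-linked covariate, 7 after removal of trends, 7 in libraries with Y-linked expression and 5 with the olfactory bulb covariate, and 5 to 21 with each library left out. The share of all genes tested at that p, 7.82% as reported, was 4.73% with DESeq2, 10.6% with the Y-linked covariate, 5.13% with the striatal covariate, 6.44% after removal of trends, 3.77% in libraries with Y-linked expression, 5.61% with the olfactory bulb covariate and 4.13% to 11.8% with each library left out. Over all genes the 1492 as reported became 902 with DESeq2, 979 with the striatal covariate and 696 in libraries with Y-linked expression, and 782 to 2239 with each library left out. Genes passing an adjusted p of 0.05 numbered 1 with DESeq2 (Sst), 23 with the Y-linked covariate, 3 in libraries with Y-linked expression and 0 to 1 with each library left out. The causes were not tested.

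The replicate number as a block gave 8 of the 33 and 1693 of all genes at an unadjusted p under 0.05 and 0 after adjustment. Libraries sharing a number had correlations of their deviations of 0.267, 0.0591 and -0.0199, so the numbers were not taken to pair animals.

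The sign reversed for 14 of the 33, which had log2 fold changes of -0.08 to 0.08 as reported except Ephb1 at -0.14. Dpysl3 became 0.0049 with edgeR, 0.025 with library totals, 0.0038 without the filter, 0.0011 with the replicate block and 0.0022 with the Y-linked covariate. Ncam1 became 0.017 with library totals, 0.037 with the striatal covariate and 0.031 after removal of trends. The olfactory bulb covariate gave -0.11 for Sema3a, 0.071 for Plxna1, -0.043 for Robo2, -0.034 for Ntn1, 0.12 for Dcc and 0.085 for Ephb1. The striatal covariate gave 0.038 for Slit1 and -0.034 for Robo2. Libraries with Y-linked expression gave 0.037 for Slit1, 0.072 for Slit2, -0.011 for Robo2, -0.029 for Ntn1 and 0.036 for Dcc. Quality weights gave -0.006 for Robo2 and 0.0036 for Dcc. With each library left out in turn the values ran from -0.14 to 0.092 for Dpysl3, -0.072 to 0.21 for Sema3a, -0.17 to 0.0095 for Plxna1, -0.017 to 0.11 for Plxna2, -0.05 to 0.13 for Plxna4, -0.1 to 0.031 for Slit1, -0.12 to 0.032 for Slit2, -0.0063 to 0.1 for Slit3, -0.053 to 0.1 for Robo2, -0.046 to 0.17 for Ntn1, -0.1 to 0.087 for Dcc, -0.25 to 0.042 for Ephb1, -0.079 to 0.041 for Ncam1 and -0.0023 to 0.07 for Nfasc.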

Other observations

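Several guidance genes outside the 33 had KO 1 above every other library, as Dcx did. WT 2 was the lowest for Epha3, Sema3d and Marcksl1, but not for Ntng1 or Sema3c. A level in KO 1 more than 1.3 times that of the highest other library was found for 1 of the 33 genes (3.03%), 8 of the 86 other guidance genes (9.3%) and 4.79% of all genes tested. Ntng1, a membrane-anchored netrin relative of projection axons, was at 32.9 CPM in KO 1 and at 11 to 19.3 CPM in the other 5 libraries, a ratio of 1.71. Epha3, a receptor of A-class ephrins, was at 14.7 CPM against 6.71 to 10.3 CPM, the secreted semaphorin Sema3d at 15.5 against 5.4 to 11 CPM and Sema3c at 50.4 against 29 to 37.5 CPM. Marcksl1, a membrane-bound regulator of actin, was at 74.5 CPM against 39.4 to 55.2 CPM. These genes were singled out after their values were seen. The summed olfactory bulb and neuroblast markers were at 353 CPM in KO 1, and with them as a covariate 5 of the 86 genes had an unadjusted p under 0.05, against 5.61% of all genes tested, and without it 11 did, against 7.82%.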
